A study of Homo sapiens with 18 samples.

Results

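The comparison described here is that of olaparib with the vehicle DMSO in T47D cells labelled WT, the line titled T47D AAV. It rests on 6 of the 18 sequenced libraries, 3 with olaparib at 10 µmol/L for 48 hours and 3 with the corresponding amount of DMSO, chosen by the genotype and treatment that the sample labels give. T47D is an estrogen receptor-positive luminal breast cancer line. The study compared PARP inhibitors by several methods, and its transcriptome series also holds 3 WT libraries with niraparib at the same dose and time and 9 libraries (olaparib, niraparib and DMSO) of a line titled T47D JL and labelled PARP1 KO. How the KO line was made, and whether it is a single clone, is not given in the sources used here, so genotype and line cannot be told apart. PolyA RNA was sequenced and reads were counted per gene by strand, and levels below are in CPM, the counts of a gene relative to the TMM-scaled size of its library. The labels do not say whether the 3 libraries of a group came from separate cultures. The study's methods give 3 dishes per condition for its omics work, without tying each library to its own dish. P values therefore measure the spread between these libraries, which may be technical.

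The 6 libraries held between 30293678 and 52251288 counted reads. Among them DMSO replicate 1 stood apart: its counts differed from those of the other DMSO libraries by a chi-square of 15.9 and 17.3 per gene, against 3.14 to 4.63 for the other pairs within a group, and mitochondrially encoded genes took 5.12% of its reads against 3.91% to 4.93% in the other libraries compared. Results are therefore also given without it where that changes them. All 12 luminal markers listed (ESR1, GATA3, FOXA1 and KRT8 among them) were above 1 CPM. Of 7 fibroblast markers 1 was above 1 CPM, the collagen gene COL1A1 at a mean of 113 CPM with DMSO and 102 CPM with olaparib (adjusted P = 0.58, edgeR), and FAP had no read in any of the 6 libraries; their sum was 104 to 131 CPM and 97.7 to 109.5 CPM. The 4 endothelial markers summed to at most 0.276 CPM, with no read of CDH5, and the 6 immune markers to 2.09 to 2.16 CPM with DMSO and 2.10 to 3.08 CPM with olaparib. On the scale of all 18 libraries, PARP1 RNA was at 347 to 373 CPM with DMSO and 337 to 348 CPM with olaparib in WT cells, and at 24.2 to 27.6 CPM in the DMSO and olaparib libraries labelled PARP1 KO.

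Poly(ADP-ribose) polymerases such as PARP1 and PARP2 bind DNA breaks and attach chains of ADP-ribose to themselves and to neighbouring proteins, which recruits repair factors and then releases the enzyme from DNA. Olaparib occupies the nicotinamide pocket of these enzymes, blocks chain formation and holds the enzyme on DNA, where it can obstruct replication forks. Cells that meet such lesions are known to activate checkpoint kinases and inflammatory transcription factors, and to delay passage through S phase and G2.

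Of 22446 genes tested with edgeR, 907 were called (4.04%), 462 of them higher with olaparib (2.06%) and 445 lower (1.98%); a call needed a difference past 1.5-fold whose P value, adjusted over all genes, was under 0.05. With the adjusted P value alone, 2525 genes were higher (11.2%) and 1745 lower (7.77%), so most differences were smaller than 1.5-fold. These shares of all genes are the background for the counts within gene lists below. The median log2 fold change of all genes tested was -0.017. In whole cultures, a change in the number of cells in a given state and a change of RNA per cell cannot be told apart. DESeq2 called 847 genes, of which 802 were also called by edgeR. Without DMSO replicate 1, 641 of the 907 called genes were still called, 363 of the higher and 278 of the lower ones.

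**Figure D1:**
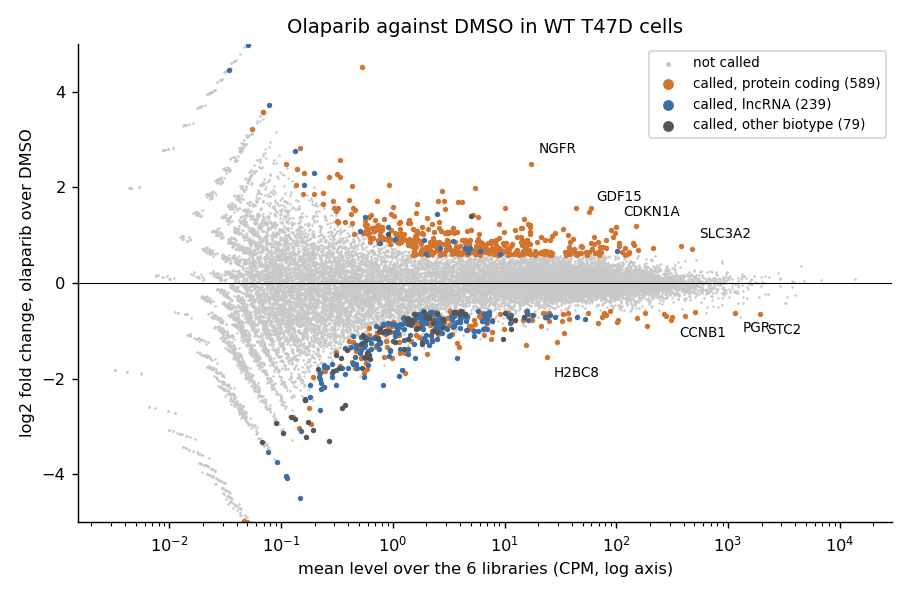
Each point is a gene tested in WT cells, with its mean level over the 6 libraries in CPM (log axis) against its log2 fold change, olaparib over DMSO. Called genes are coloured by biotype, and points beyond 5 on the vertical axis lie outside the plot. Called lncRNA genes lie mostly below the zero line and called protein-coding genes mostly above it.

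The largest rise among genes with at least 1 CPM was that of NGFR, the low-affinity neurotrophin receptor (chromosome 17, 49495293 to 49515008, + strand, GRCh38). Its level was 5.16, 5.29 and 5.28 CPM with DMSO and 32.1, 26.996 and 29.2 CPM with olaparib. Every olaparib library was far above every DMSO library, with little spread inside either group, and the change was 2.49 on the log2 scale (SE 0.08, adjusted P = 2.1e-14, edgeR). RAB3IL1, an exchange factor for Rab GTPases, had 2.22, 2.09 and 2.19 CPM with DMSO and 8.26, 8.90 and 8.77 CPM with olaparib (log2 fold change 1.997, SE 0.12, adjusted P = 3.5e-10, edgeR). INHBE, which encodes the activin beta E subunit, had 1.35, 1.46 and 1.16 CPM with DMSO and 4.52, 4.75 and 3.87 CPM with olaparib (log2 fold change 1.72, SE 0.15, adjusted P = 5.2e-08, edgeR). CSPG4, a membrane proteoglycan, had 1.25, 2.17 and 2.31 CPM with DMSO and 5.55, 6.51 and 7.03 CPM with olaparib (log2 fold change 1.70, SE 0.17, adjusted P = 4.9e-07, edgeR), with DMSO replicate 1 the lowest of the 6. NR1D1, the circadian repressor REV-ERB alpha, was more abundant than these, at 22.8, 21.7 and 21.1 CPM with DMSO and 70.5, 57.9 and 67.3 CPM with olaparib (log2 fold change 1.58, SE 0.08, adjusted P = 1.0e-09, edgeR). The 15 largest rises were picked among calls without overlap between the treatments, so the lack of overlap in these 5 genes was set by that choice. The other genes of the 15 largest rises were TNF, PMAIP1, BTG2 and GDF15, described with their groups below, and ARAP3, DGAT2, DRAXIN, DEPP1, TPPP and the imprinted RNA H19, with log2 fold changes from 1.44 to 1.71.

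Of 26 p53 targets tested, 20 had an adjusted P value below 0.05 in the upward direction, beside 11.2% of all genes. Called were 6, all of them higher, beside 2.06% of all genes, and the list median was 0.29 on the log2 scale. BTG2, an antiproliferative cofactor of mRNA deadenylation, had 29.5, 32.1 and 29.1 CPM with DMSO and 96.3, 86.9 and 86.2 CPM with olaparib (log2 fold change 1.57, SE 0.06, adjusted P = 6.7e-14, edgeR). GDF15, a secreted stress cytokine of the TGF-beta family, had 27.97, 33.3 and 29.5 CPM with DMSO and 89.0, 78.0 and 87.5 CPM with olaparib (log2 fold change 1.48, SE 0.07, adjusted P = 3.4e-12, edgeR). CDKN1A, the inhibitor p21 of cyclin-dependent kinases, went from 60.7 ± 8.27 CPM (SD, n = 3) to 137 ± 2.27 CPM (log2 fold change 1.18, SE 0.07, adjusted P = 4.5e-08, edgeR), and its lowest olaparib library was above its highest DMSO library. The other called members were the BH3-only death gene BBC3 (1.06), the exonuclease gene AEN (0.68) and the stress sensor gene SESN2 (0.66). The growth regulator SESN1 rose by less than 1.5-fold (0.45), and the ubiquitin ligase gene MDM2 had a log2 fold change of 0.06 that did not pass. In the BCL2 family, which sets the threshold for mitochondrial apoptosis, 3 of 15 members were called, beside 4.04% of all genes. BBC3 and the second BH3-only gene PMAIP1 (NOXA) were higher and the survival gene BCL2 was lower. PMAIP1 had 6.20, 4.67 and 4.604 CPM with DMSO and 16.05, 13.8 and 15.7 CPM with olaparib (log2 fold change 1.57, SE 0.11, adjusted P = 2.6e-09, edgeR). BCL2 had 2.80, 2.49 and 2.64 CPM with DMSO and 1.499, 1.87 and 1.87 CPM with olaparib (log2 fold change -0.60, SE 0.19, adjusted P = 0.027, edgeR), a call that was lost without DMSO replicate 1 (-0.55) and without DMSO replicate 3, olaparib replicate 1 or olaparib replicate 3.

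**Figure D2:**
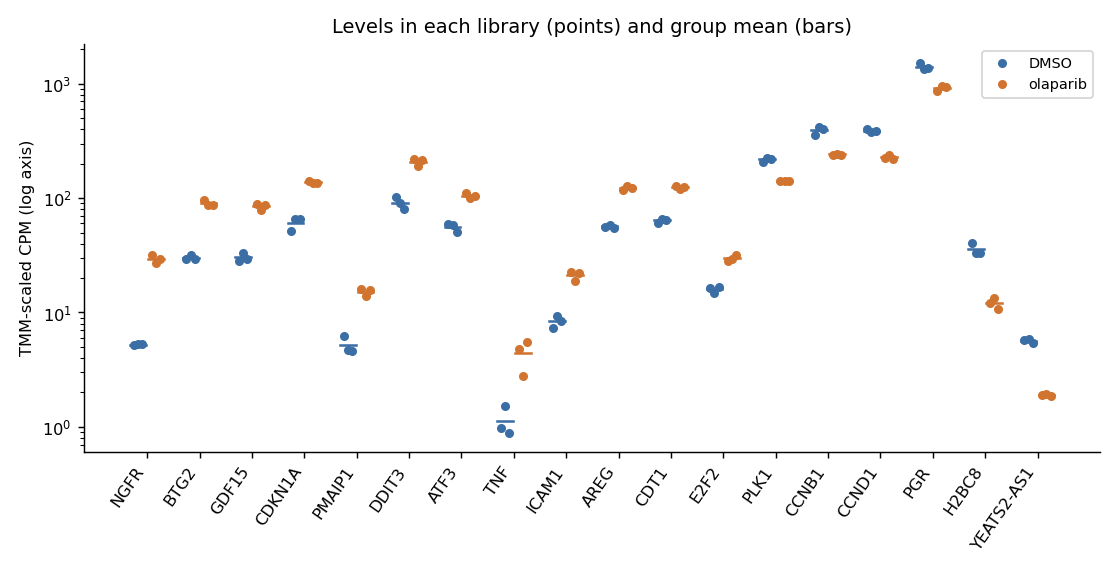
Level of 18 genes in each of the 6 libraries (points, TMM-scaled CPM, log axis) with the group mean (bar), DMSO in blue and olaparib in orange. For each gene shown the points of the 2 treatments do not overlap, from NGFR, which was higher with olaparib, to YEATS2-AS1, which was lower.

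The list of ATF4 targets and the unfolded protein response, genes that cells switch on when translation initiation factor eIF2 is phosphorylated or the endoplasmic reticulum is overloaded, had the highest share of calls among the lists in the main fit. Of 22 members tested, 9 were called, all higher, and the list median was 0.40. By adjusted P value alone, 16 passed upward and 1 downward. HSPA5, DNAJB9, SDF2L1, XBP1, PDIA4 and CRELD2 of this list were not called. DESeq2 called 8 of the 22, and 6 higher and 1 lower of 19 immediate early and AP-1 genes, then the highest share. Without DMSO replicate 2, edgeR called 9 in the ATF4 list and 7 higher and 1 lower in the immediate early list. DDIT3, the pro-apoptotic factor CHOP, had 102, 90.4 and 80.2 CPM with DMSO and 219.5, 189.9 and 216 CPM with olaparib (log2 fold change 1.20, SE 0.08, adjusted P = 1.0e-06, edgeR). ATF3, a repressor of the same bZIP class, had 59.8, 58.2 and 50.1 CPM with DMSO and 109.8, 101 and 105 CPM with olaparib (log2 fold change 0.91, SE 0.08, adjusted P = 9.0e-07, edgeR). TRIB3, a pseudokinase that restrains AKT, had 164, 161 and 152 CPM with DMSO and 278, 244 and 272 CPM with olaparib (log2 fold change 0.73, SE 0.05, adjusted P = 2.7e-09, edgeR). SLC3A2, the heavy chain of the cystine and leucine transporters, was among the most counted of all higher genes, at 359.8 ± 16.8 CPM with DMSO and 592 ± 16.8 CPM with olaparib (log2 fold change 0.72, SE 0.05, adjusted P = 2.3e-09, edgeR). The mTORC1 inhibitor DDIT4 (0.86), the glutathione-degrading enzyme CHAC1 (0.81), the lipoprotein receptor VLDLR (0.72) and SESN2 completed the list with HERPUD1. HERPUD1, a component of endoplasmic reticulum-associated degradation, stood at the fold threshold (log2 fold change 0.59, SE 0.06, adjusted P = 3.8e-07, edgeR): its log2 fold change ranged from 0.53 to 0.64 over 13 alternatives, and 7 of them left it below 1.5-fold, among them the fits without olaparib replicate 1 and without DMSO replicate 3.

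A short element, TGATGNAA, is the core of sites that ATF4 binds with C/EBP partners. Searched on both strands in the 250 bases before to 50 bases after the RefSeq start, it occurred in 13 of 345 promoters of called higher genes (3.77%), 3 of 213 of called lower genes (1.41%) and 252 of 13301 of all tested genes (1.89%). It was present in 4 of the 9 called members of the ATF4 list. This motif was picked after the values were known. The windows below lie before the start of the gene, in RefSeq coordinates of GRCh38.p14, are written 5' to 3' on the strand of the gene, and mark the match in capitals. They are shown because ATF3 and HERPUD1 are called members that hold the element.
ATF3 (+ strand, chr1:212565205-212565234): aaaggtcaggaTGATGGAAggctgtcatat
HERPUD1 (+ strand, chr16:56931955-56931984): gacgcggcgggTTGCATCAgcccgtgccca

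In the NF-kB and cytokine list, 6 of 19 members were called, all higher, with a list median of 0.28. With single libraries left out, 5 or 6 were called. The median then went from 0.28 without olaparib replicate 3 to 0.56 without DMSO replicate 3. TNF, the cytokine that itself activates NF-kB, had 0.977, 1.52 and 0.881 CPM with DMSO and 4.84, 2.80 and 5.51 CPM with olaparib (log2 fold change 1.92, SE 0.26, adjusted P = 4.6e-05, edgeR). ICAM1, an adhesion receptor for leukocytes, had 7.31, 9.35 and 8.48 CPM with DMSO and 22.6, 18.9 and 22.3 CPM with olaparib (log2 fold change 1.33, SE 0.10, adjusted P = 5.6e-09, edgeR). TNFAIP3, the deubiquitinase A20 that limits NF-kB, changed by 1.10 on the log2 scale (SE 0.13, adjusted P = 4.2e-06, edgeR), and RELB, a subunit of the non-canonical pathway, by 0.85 on the log2 scale (SE 0.11, adjusted P = 6.1e-06, edgeR). The cytokines LIF (1.45) and IL32 (1.05, not called without olaparib replicate 2 or DMSO replicate 2) were low, with LIF at no more than 1.58 CPM. Of the 19 immediate early and AP-1 genes, which respond to growth factors and stress within minutes, 6 were called higher and 1 lower, and the list median was 0.57. JUNB, a subunit of AP-1, had 42.7, 42.0 and 42.5 CPM with DMSO and 81.0, 70.3 and 75.0 CPM with olaparib (log2 fold change 0.83, SE 0.06, adjusted P = 5.8e-09, edgeR). EGR1, a zinc finger factor, had 11.5, 12.2 and 7.82 CPM with DMSO and 26.9, 22.9 and 20.7 CPM with olaparib (log2 fold change 1.16, SE 0.14, adjusted P = 1.3e-04, edgeR), and the nuclear receptor NR4A1 changed by 0.76 on the log2 scale (SE 0.07, adjusted P = 1.6e-07, edgeR). The remaining higher calls were ATF3, KLF4 (0.73) and KLF2 (0.90, not called without DMSO replicate 3 or any 1 olaparib library). The exception was MYC, a driver of growth, at 105, 94.5 and 81.7 CPM with DMSO and 59.5, 63.9 and 58.1 CPM with olaparib (log2 fold change -0.63, SE 0.07, adjusted P = 1.9e-05, edgeR); without DMSO replicate 1 its change was -0.54, below 1.5-fold.

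Among ligands of the EGF receptor family, 3 were called higher. AREG (amphiregulin) had 55.8, 58.7 and 54.8 CPM with DMSO and 118, 127 and 124 CPM with olaparib (log2 fold change 1.12, SE 0.05, adjusted P = 7.8e-12, edgeR). EREG (epiregulin) had 0.607, 0.651 and 0.629 CPM with DMSO and 1.29, 1.32 and 0.9996 CPM with olaparib (log2 fold change 0.93, SE 0.23, adjusted P = 0.0067, edgeR), and HBEGF changed by 0.69 on the log2 scale (SE 0.15, adjusted P = 0.0025, edgeR). These 3 were the only calls among 12 members tested, and no receptor of the family was among them. DUSP1, a phosphatase that switches off MAP kinases, was the 1 gene edgeR called among 12 ERK feedback genes (log2 fold change 0.75, SE 0.09, adjusted P = 1.2e-04, edgeR). DESeq2 called 2 of these genes higher, and without DMSO replicate 3 edgeR called 1 higher and 1 lower.
The AP-1 site TGANTCA, a sequence that is its own reverse complement, occurred in 29 of 345 promoters of called higher genes (8.41%), 13 of 213 of called lower genes (6.10%) and 637 of 13301 of all tested genes (4.79%). Among promoters of called members, it was in 0 of 6 of the immediate early and AP-1 list. It was in 0 of 3 of the EGF family list and 0 of 1 of the ERK feedback list. Matches before the start were found in DDIT3, BBC3, SLC3A2 and the exonuclease gene ISG20, called higher members of other lists, and are shown as examples of this element.
DDIT3 (- strand, chr12:57520735-57520764): gcgcgcgcaTGACTCAcccacctcctccgt
BBC3 (- strand, chr19:47232762-47232791): gcactggaaggTGAGTCActctggtgaggc
SLC3A2 (+ strand, chr11:62881651-62881680): acgagggtgggTGACTCAgcgtcctccttc
ISG20 (+ strand, chr15:88638983-88639012): ggagttagagaTGAGTCAccgctgagagca

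**Figure D3:**
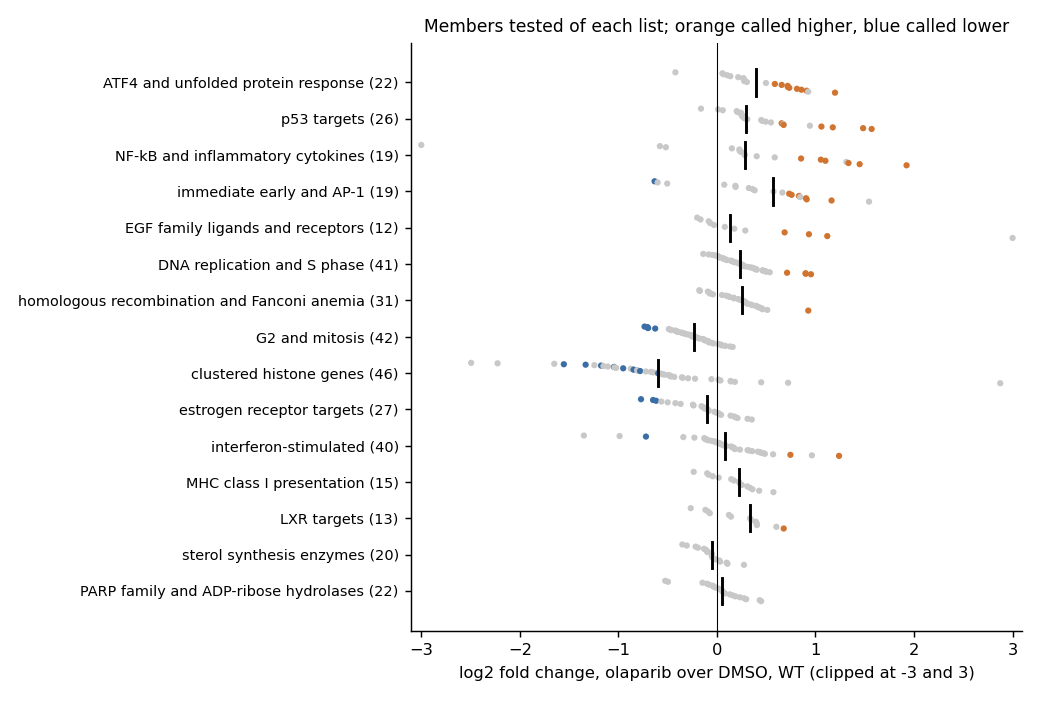
Each row is a gene list with the number of members tested, each point a member's log2 fold change (olaparib over DMSO in WT, clipped at -3 and 3) and the black bar the list median; orange points were called higher and blue points lower. The ATF4 list has its median at 0.40, the clustered histone genes at -0.60 and G2 and mitosis genes at -0.23.

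In the replication and S phase list, 25 of 41 members had an adjusted P value below 0.05 upward and 4 were called, all higher, with a median of 0.24; without DMSO replicate 1, 23 members were below 0.05 upward and 1 downward. CDT1, which loads the MCM helicase at origins, had 61.1, 66.2 and 64.9 CPM with DMSO and 129, 119 and 125 CPM with olaparib (log2 fold change 0.95, SE 0.05, adjusted P = 2.9e-11, edgeR). ORC1, a subunit of the origin recognition complex, had 10.2, 10.3 and 9.61 CPM with DMSO and 19.2, 18.6 and 18.3 CPM with olaparib (log2 fold change 0.90, SE 0.08, adjusted P = 4.6e-08, edgeR). E2F2, a transcription factor of the G1 to S transition, had 16.3, 14.8 and 16.7 CPM with DMSO and 28.01, 29.4 and 31.8 CPM with olaparib (log2 fold change 0.90, SE 0.07, adjusted P = 1.1e-08, edgeR). The fourth call was MCM10, which helps to start the helicase (0.71), and cyclin gene CCNE2 (0.54), E2F1 (0.47) and CDC6 (0.46) changed in the same direction by less than 1.5-fold. Among 31 genes of homologous recombination and the Fanconi anemia pathway, which repair the breaks and crosslinks that replication meets, 17 had an adjusted P value below 0.05 upward. The exonuclease gene EXO1, which resects DNA ends, was the only one called, at 25.6, 28.4 and 31.5 CPM with DMSO and 54.2, 55.4 and 53.3 CPM with olaparib (log2 fold change 0.93, SE 0.06, adjusted P = 2.7e-09, edgeR).

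In the G2 and mitosis list, 24 of 42 members had an adjusted P value below 0.05 downward and 1, CDC25B (0.16), upward; 5 were called, all lower, and the median was -0.23. Without DMSO replicate 1, 5 members were called lower and 29 were below 0.05 downward. CCNB1, the cyclin that drives entry into mitosis, had 359, 416 and 402 CPM with DMSO and 238, 245 and 239 CPM with olaparib (log2 fold change -0.70, SE 0.06, adjusted P = 2.7e-07, edgeR). PLK1, the Polo-like kinase, had 209, 223 and 221 CPM with DMSO and 140.0, 141 and 142 CPM with olaparib (log2 fold change -0.63, SE 0.07, adjusted P = 2.5e-06, edgeR). KIF20A, a kinesin of cytokinesis, had 181, 202 and 195 CPM with DMSO and 117, 114 and 116 CPM with olaparib (log2 fold change -0.73, SE 0.06, adjusted P = 2.5e-08, edgeR). The kinetochore motor CENPE (-0.71) and the spindle protein ASPM (-0.70) completed the calls. PIF1, a helicase gene among the 15 largest falls, had 28.7, 18.9 and 18.5 CPM with DMSO and 9.02, 8.10 and 9.61 CPM with olaparib (log2 fold change -1.30, SE 0.22, adjusted P = 0.0034, edgeR), with DMSO replicate 1 well above the other libraries and a change of -1.07 without it.

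The promoters of these lists differ in known cell cycle elements, which are printed here beside the genes that carry them. The cell cycle homology region TTTGAA was found in 23 of 35 promoters of the G2 and mitosis list (65.7%), 1 of 35 of the S phase list (2.86%) and 1359 of 13301 of all tested genes (10.2%). E2F sites were found as TTTGGCGC in 8 of 35 S phase promoters (22.9%) against 133 of all tested (0.9999%), and as TTTCCCGC in 10 of 35 (28.6%) against 323 of all tested (2.43%). These shares describe the lists and not the response to olaparib. Among called members, TTTGAA was in 2 of 5 of the G2 and mitosis list, PLK1 and ASPM. Each E2F form was in 1 of 4 called members of the S phase list. Over all called genes, TTTGAA was in 7.83% of higher and 12.2% of lower promoters. TTTGGCGC was in 5 of 345 (1.45%) and 3 of 213 (1.41%) of them, beside 0.9999% of all tested promoters. TTTCCCGC was in 5 of 345 (1.45%) and 2 of 213 (0.939%), beside 2.43%. These counts are too small to read a difference from. These motifs were searched on both strands and may share bases with one another. TTTGAA or its reverse complement was also found before the start of the called higher genes EGR1, DUSP1, SLC3A2 and CYP27A1, not printed here. The capitals mark E2F matches in CDT1 and E2F2 and TTTGAA, or its reverse complement, in PLK1, ASPM and PIF1.
CDT1 (+ strand, chr16:88803743-88803772): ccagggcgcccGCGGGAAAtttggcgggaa
E2F2 (- strand, chr1:23531257-23531286): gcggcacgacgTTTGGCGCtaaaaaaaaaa
PLK1 (+ strand, chr16:23678848-23678877): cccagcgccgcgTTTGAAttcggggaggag
ASPM (- strand, chr1:197146765-197146794): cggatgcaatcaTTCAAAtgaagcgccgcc
PIF1 (- strand, chr15:64825650-64825679): ctgcctctagcaTTTGAAaaatttctagtt

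The clustered histone genes, which supply histones for newly replicated DNA, had less polyadenylated RNA with olaparib. This list was taken by gene symbol after the values were seen. The summed level was 369.7 CPM, 368 CPM and 366 CPM with DMSO and 248.0 CPM, 248.1 CPM and 244 CPM with olaparib, so that the groups did not overlap; no test is given, since the list was chosen for its fall. Of 46 genes tested, 37 were below zero, 12 had an adjusted P value below 0.05 downward and 8 were called, all lower, by edgeR (9 by DESeq2), with a median of -0.60. H2BC8 (chromosome 6, 26215159 to 26216692, - strand) had 40.8, 33.0 and 33.2 CPM with DMSO and 12.05, 13.5 and 10.8 CPM with olaparib (log2 fold change -1.55, SE 0.11, adjusted P = 2.2e-08, edgeR). H2BC21 had 47.9, 43.4 and 46.3 CPM with DMSO and 22.3, 22.5 and 21.96 CPM with olaparib (log2 fold change -1.04, SE 0.07, adjusted P = 1.1e-09, edgeR). H2BC7 had 6.07, 4.93 and 5.71 CPM with DMSO and 2.29, 2.33 and 1.97 CPM with olaparib (log2 fold change -1.33, SE 0.16, adjusted P = 5.3e-06, edgeR). The other calls were H2BC9, H3C10, H2BC26, H2BC4 and H2BC6, from -1.18 to -0.60, of which H2BC9 lost its call without DMSO replicate 1 or any 1 olaparib library, and H2BC6 without DMSO replicate 1 or 3 or olaparib replicate 2 or 3. SLBP, whose product processes histone mRNA ends, was higher by 0.40, below 1.5-fold. Most such mRNAs end in a stem-loop without a polyA tail, so these libraries hold only their polyadenylated part, and near-identical copies make single histone genes uncertain.

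Targets of the estrogen receptor included some of the most abundant falling genes. Of 27 tested, 3 were called, all lower, and the list median was -0.10, with 9 members below an adjusted P value of 0.05 downward and 3 upward. CCND1, cyclin D1, had 400.0, 382 and 383 CPM with DMSO and 226, 236 and 221 CPM with olaparib (log2 fold change -0.77, SE 0.06, adjusted P = 2.3e-08, edgeR). STC2, a secreted glycoprotein, had 2379 ± 82.2 CPM with DMSO and 1518 ± 69.1 CPM with olaparib (log2 fold change -0.65, SE 0.05, adjusted P = 1.2e-08, edgeR). PGR, the progesterone receptor, had 1532, 1343 and 1364 CPM with DMSO and 871, 956 and 936 CPM with olaparib (log2 fold change -0.62, SE 0.06, adjusted P = 1.1e-07, edgeR); its change was -0.55, below 1.5-fold, without DMSO replicate 1, and its call was also lost without olaparib replicate 1. The 12 luminal markers together were at 13312 to 14104 CPM with DMSO and 11137 to 11487 CPM with olaparib, without overlap. ESR1 itself (-0.45) and KRT8 (-0.42) had the largest falls, the epithelial factor ELF3 rose (0.52), and no luminal marker was called by the 1.5-fold criterion. Basal or myoepithelial markers summed to 48.0 to 51.2 CPM with DMSO and 58.5 to 60.9 CPM with olaparib, with MYLK called higher and 4 of 6 markers tested. Other most counted genes that fell were PFKFB3, which stimulates glycolysis (log2 fold change -0.61, SE 0.06, adjusted P = 2.7e-07, edgeR), and the matrix protein THBS1 (log2 fold change -0.69, SE 0.05, adjusted P = 5.6e-09, edgeR).

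The genes called lower were to a large part long noncoding RNAs (lncRNA), transcripts without a known protein product. Of the 445, 215 were annotated as lncRNA (48.3%) and 154 as protein coding (34.6%). Of the 462 called higher, 24 were lncRNA (5.19%) and 435 protein coding (94.2%), and of all genes tested 19.5% were lncRNA. The contrast was present among genes of at least 1 CPM, where 132 of 278 lower calls (47.5%) but 997 of 13502 genes (7.38%) were lncRNA. It was also present among calls kept without DMSO replicate 1, with lncRNA at 127 of 278 lower calls (45.7%) and 16 of 363 higher calls (4.41%). Over all 4372 lncRNA genes tested, 68.0% had a fold change below zero and the median was -0.31 on the log2 scale, against 45.5% and 0.025 for 14818 protein-coding genes; without DMSO replicate 1 the lncRNA median was -0.24. By name, 51 of the 215 were antisense transcripts, 29 divergent transcripts and 22 intergenic LINC genes, and 93 had no symbol. The share of all counts on lncRNA genes was 1.27%, 1.02% and 1.08% with DMSO and 0.931%, 0.950% and 0.965% with olaparib, with DMSO replicate 1 the highest and no overlap. The part of that library in these shares was not tested beyond leaving it out.

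Single lncRNA genes were low in every olaparib library. YEATS2-AS1, antisense to the YEATS2 locus (chromosome 3, 183806457 to 183810783, - strand), had 5.76, 5.92 and 5.36 CPM with DMSO and 1.89, 1.95 and 1.87 CPM with olaparib (log2 fold change -1.57, SE 0.16, adjusted P = 4.5e-07, edgeR). LINC00235 had 1.92, 1.68 and 2.04 CPM with DMSO and 0.631, 0.522 and 0.419 CPM with olaparib (log2 fold change -1.82, SE 0.26, adjusted P = 3.0e-05, edgeR). ARHGEF17-AS1 had 1.92, 2.07 and 1.89 CPM with DMSO and 0.815, 0.577 and 0.871 CPM with olaparib (log2 fold change -1.38, SE 0.22, adjusted P = 1.2e-04, edgeR). In SLC16A4-AS1 (-1.58) and MIRLET7IHG (-1.39), the host transcript of a let-7 microRNA, DMSO replicate 1 was the highest library, and without it the changes were -1.16 and -0.98. Protein-coding genes among the 15 largest falls were CYP26B1, which degrades retinoic acid (2.97, 3.23 and 2.77 CPM with DMSO and 0.815, 1.37 and 1.03 CPM with olaparib; log2 fold change -1.48, SE 0.22, adjusted P = 5.5e-05, edgeR), the X-linked MAGEB17 (-1.89), RTP1 (-1.47), SMIM33 (-1.46) and PJVK (-1.24), none above 3.23 CPM, with the histone and PIF1 genes above. Called lower genes were also shorter, with a median exon length of 2989 bases and a median span of 9005 bases, against 4324.5 and 27427 bases for called higher genes and 3566.5 and 18346.5 bases for all tested. At 1 CPM or more, the medians were 3673 and 12795 bases for lower calls. They were 4798 and 29296 bases for higher calls, close to the 4951 and 29750 bases of all genes at that level. Whether length follows from the lncRNA share was not tested.

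No call fell in the family of the drug's targets. Among 22 PARP family and ADP-ribose hydrolase genes, 0 were called by edgeR or DESeq2, 8 had an unadjusted P value below 0.05, as did 30.2% of all genes tested, and, after adjustment, 4 passed upward and 1 downward without reaching 1.5-fold. PARP1 had 351, 379.7 and 372 CPM with DMSO and 342, 353 and 349 CPM with olaparib (log2 fold change -0.08, SE 0.05, adjusted P = 0.28, edgeR). The tankyrase genes TNKS and TNKS2, whose products mark AXIN for degradation, changed by 0.45 (adjusted P = 2.5e-06, edgeR) and 0.30 (adjusted P = 6.0e-05), less than 1.5-fold. Of 14 Wnt targets and tankyrase partners, 3 were called, all higher: NKD2 (1.29), TCF7 (0.93) and RNF43 (0.61). NKD2 and TCF7 were at or below 1.58 CPM, TCF7 lost its call without olaparib replicate 3, RNF43 lost its call without olaparib replicate 1 or without DMSO replicate 1 (0.48), and 59.5% of the exon length of RNF43 is shared with another gene of its strand. FECH, the last enzyme of heme synthesis, had 48.3, 54.9 and 52.4 CPM with DMSO and 48.7, 49.0 and 50.3 CPM with olaparib (log2 fold change -0.07, SE 0.06, adjusted P = 0.42, edgeR). The only call among 15 heme genes was HMOX1, which breaks heme down (log2 fold change 0.80, SE 0.12, adjusted P = 3.7e-05, edgeR), where 4.04% of all genes were called.

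Of 20 sterol synthesis enzymes, 0 were called by edgeR or DESeq2 and 6 had an unadjusted P value below 0.05 (against 30.2% of all genes), with a median of -0.05. Of 12 SREBP-regulated genes of uptake and fatty acid synthesis, 0 were called by edgeR or DESeq2 and 8 had an unadjusted P value below 0.05, beside the same 30.2% of all genes. FASN, fatty acid synthase, had 1394 ± 107 CPM with DMSO and 1049.9 ± 39.5 CPM with olaparib (log2 fold change -0.41, SE 0.06, adjusted P = 2.6e-05, edgeR), a fall below 1.5-fold without overlap of the libraries. Of 13 LXR targets only MYLIP, the ubiquitin ligase of the LDL receptor, was called (15.1, 14.2 and 13.99 CPM with DMSO and 25.1, 21.997 and 21.96 CPM with olaparib; log2 fold change 0.68, SE 0.08, adjusted P = 1.5e-06, edgeR). Over all genes tested, 4.04% were called. CYP27A1, the sterol 27-hydroxylase, had 3.94, 4.22 and 4.30 CPM with DMSO and 6.76, 6.59 and 6.77 CPM with olaparib (log2 fold change 0.69, SE 0.12, adjusted P = 2.9e-04, edgeR).

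Interferon-stimulated genes gave 3 calls among 40 members, beside 4.04% of all genes. IRF1 (log2 fold change 1.24, SE 0.12, adjusted P = 2.6e-07, edgeR) and ISG20 (0.75) were higher. IFI27 was lower (-0.72, not called without DMSO replicate 2, olaparib replicate 2 or olaparib replicate 3). The list median was 0.08, and went from 0.05 without olaparib replicate 3 to 0.14 without DMSO replicate 2. IRF1, a transcription factor of the interferon response, had 5.19, 5.42 and 5.38 CPM with DMSO and 14.5, 10.6 and 12.6 CPM with olaparib. Of 15 MHC class I genes, 7 had an adjusted P value below 0.05 upward, 0 were called by edgeR or DESeq2 and 10 had an unadjusted P value below 0.05 (30.2% of all genes did); without olaparib replicate 2, or without DMSO replicate 3, 1 was called higher. Among 20 NRF2 targets, the antioxidant genes HMOX1 and SRXN1 (0.75) were called higher and the transporter ABCC2 (-1.03) lower, with 85.0% of SRXN1 exon length shared with another gene of its strand, so that its count is uncertain. SRXN1 lost its call without DMSO replicate 3, olaparib replicate 2 or olaparib replicate 3, and ABCC2 without DMSO replicate 2 or olaparib replicate 3. Of 26 lysosome and autophagy genes, 12 had an adjusted P value below 0.05 upward, beside 11.2% of all genes. Only 1 was called, their regulator TFEB (0.60), where 4.04% of all genes were called. TFEB was at 0.57 without DMSO replicate 1 and lost its call there and without DMSO replicate 3 or olaparib replicate 3. KRT13 (-0.90) was the only call among 14 keratins, beside 4.04% of all genes. Of 6 aryl hydrocarbon receptor targets and 13 mitochondrially encoded genes, 0 were called by edgeR or DESeq2, with 2 and 0 at an unadjusted P value below 0.05, beside 30.2% of all genes.

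Niraparib was given at the same dose and time, and the comparison of these 2 drugs was the only pair of compounds tested. Both carry an amide that occupies the nicotinamide pocket; olaparib is a phthalazinone with an acylated piperazine and niraparib an indazole carboxamide with a piperidine ring. Of the 22446 genes, 1261 were called higher with niraparib than with olaparib (5.62%) and 748 lower (3.33%), 8.95% in all. For NGFR the drugs did not differ beyond their spread, with a difference (niraparib minus olaparib) of 0.03 (95% interval from -0.12 to 0.18, adjusted P = 0.81, edgeR). The same held for BTG2, 0.11 (95% interval from -0.0019 to 0.22, adjusted P = 0.13, edgeR), and for TNKS, -0.04 (95% interval from -0.15 to 0.07, adjusted P = 0.61, edgeR). These intervals bound the difference and do not show that the drugs act alike. Mitotic genes were lower with niraparib than with olaparib, called for 28 of the 42 in the list, with a list median difference of -0.76: KIF20A differed by -2.27 (95% interval from -2.40 to -2.13, adjusted P = 2.1e-15, edgeR) and PLK1 by -1.83. Against their levels with olaparib, PIF1 (-2.86), the TIPE family gene TNFAIP8L1 (-2.88) and the bicarbonate transporter gene SLC4A8 (-1.68) were also lower with niraparib. Of 26 p53 targets, 7 were called higher with niraparib than with olaparib, among them AEN (1.51) and CDKN1A, which differed by 1.05 (95% interval from 0.90 to 1.21, adjusted P = 2.1e-08, edgeR). EREG was higher with niraparib by 2.32 (95% interval from 1.93 to 2.72, adjusted P = 4.8e-09, edgeR). Genes higher with olaparib than with niraparib included EGR1 (-1.21) and HERPUD1 (-0.96), within an ATF4 list of which 6 of 22 were called lower and 2 higher with niraparib; of the members described above, ATF3 (0.90) and SLC3A2 (0.65) were higher with niraparib. RTP1 (1.76), ARHGEF17-AS1 (1.70), CCDC183-AS1 (1.56), RAB39B (1.66) and the receptor kinase gene AXL (1.57) had higher levels with niraparib. AXL was called higher with olaparib over DMSO (0.59) in only 3 of 13 alternatives, and CCDC183-AS1 was called lower (-0.64) in 6 of 13.

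The libraries labelled PARP1 KO repeat the contrast of olaparib with DMSO without sharing a library. There 177 of 22037 genes were called (0.803%), and from 100 to 195 when single libraries were left out, with 100 without PARP1 KO DMSO replicate 2, 107 without DMSO replicate 3 and 113 without olaparib replicate 2. Of the genes called higher in WT cells, 457 were tested in PARP1 KO cells and 390 (85.3%) had a positive fold change, with a median of 0.32 against 0.84 in WT; of those called lower, 294 of 442 (66.5%) had a negative one, with a median of -0.19 against -0.96. Because these genes were chosen for their size in WT, a smaller median elsewhere is partly set by that choice. Called higher in both were 47 genes, which is 10.2% of the WT list and 45.6% of the PARP1 KO list, and called lower in both were 26, which is 5.84% and 35.1%. For lncRNA genes the median was -0.027 in PARP1 KO cells, with 51.8% below zero, and their share of counts was 0.915%, 1.09% and 1.17% with olaparib against 1.02%, 1.03% and 0.949% with DMSO, which overlap.

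A test of the difference itself, the interaction of genotype and olaparib over all 18 libraries, called 162 of 24675 genes (0.657%). The count was 86 without WT DMSO replicate 1, 107 and 93 without WT olaparib replicates 1 and 2, and 273, 93 and 104 without PARP1 KO olaparib replicates 1, 2 and 3. With the adjusted P value alone, 1.35% of genes had a more positive response in WT and 0.912% a more negative one. In the S phase list 29 of 41 members had a more positive response in WT, from 17 without WT olaparib replicate 2 to 30 without WT DMSO replicate 3, and 19 without WT DMSO replicate 1. In PARP1 KO cells 13 members were below the adjusted threshold downward (3.87% of all genes) and 1 upward (4.42%), and the list median was -0.12 there. CDT1 differed by 0.69 (SE 0.08, adjusted P = 1.7e-06, edgeR), E2F2 by 0.90 (SE 0.12, adjusted P = 7.1e-06, edgeR) and MCM10 by 0.74 (SE 0.10, adjusted P = 1.0e-05, edgeR). Of the 42 G2 and mitosis genes, 11 responded more negatively in WT, from 8 to 15 without single libraries and 11 without WT DMSO replicate 1, with KIF20A at -0.61 (SE 0.08, adjusted P = 1.1e-05, edgeR). Of 46 histone genes 5 did, with 3 without WT DMSO replicate 1 or without WT olaparib replicate 2, and H2BC8 differed by -1.13 (SE 0.14, adjusted P = 2.9e-05, edgeR). Summed histone levels on the scale of all 18 libraries were 312, 276 and 294 CPM with olaparib and 315, 326 and 346 CPM with DMSO in PARP1 KO cells, without overlap but closer than in WT.

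**Figure D4:**
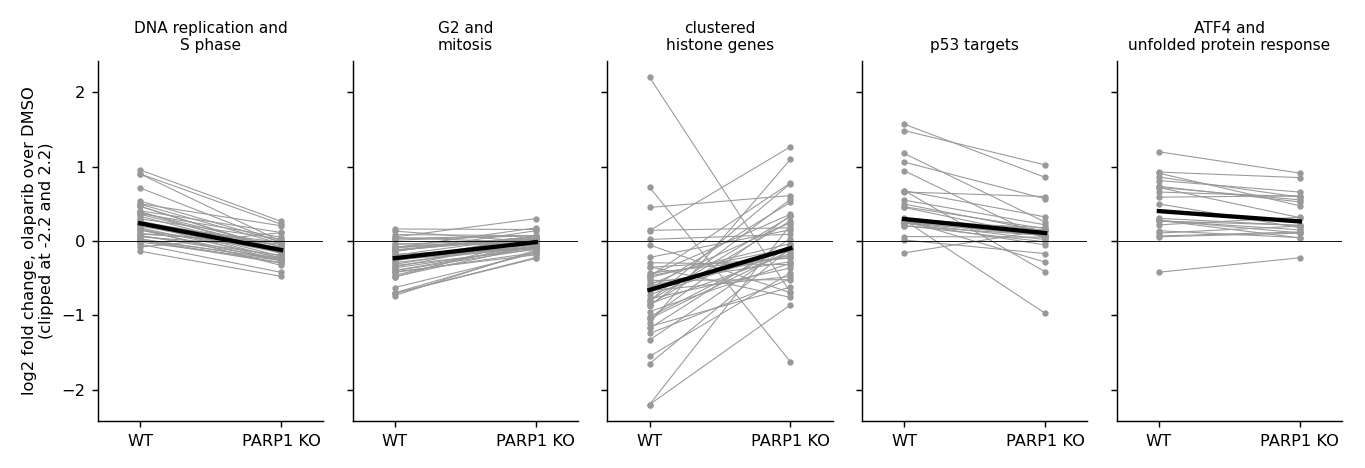
Thin lines join the log2 fold change of each list member (olaparib over DMSO) in WT and in PARP1 KO cells, clipped at -2.2 and 2.2, and the thick line joins the medians. The S phase median goes from 0.24 in WT to -0.12 in PARP1 KO cells, while the median of the ATF4 list stays above zero in both.

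In the ATF4 list 13 of 22 members had an adjusted P value below 0.05 upward in PARP1 KO cells, 5 were called higher there, and 1 responded more positively in WT (6 without PARP1 KO olaparib replicate 1). DDIT3 was at 0.91 in PARP1 KO cells and 1.20 in WT, a difference of 0.28 (SE 0.17, adjusted P = 0.44, edgeR), and SESN2 was at 0.60 and 0.66. A P value above the threshold does not show that the responses were equal. Of 26 p53 targets, 6 responded more positively in WT and 1 more negatively. With single libraries left out, 2 to 9 were more positive, with 2 without PARP1 KO olaparib replicate 2, and 0 to 1 more negative. GDF15 was at 1.02 in PARP1 KO cells and its difference of 0.46 (SE 0.16, adjusted P = 0.16, edgeR) did not pass, whereas CDKN1A, at 0.25 there, differed by 0.92 (SE 0.18, adjusted P = 0.018, edgeR), and AEN, at -0.42, by 1.09 (SE 0.11, adjusted P = 1.9e-07, edgeR). NGFR rose in both, by 1.33 in PARP1 KO cells, and differed by 1.15 (SE 0.14, adjusted P = 1.7e-06, edgeR). The changes of AREG, RELB, IRF1 and EXO1 were more positive in WT, by 0.72 to 0.92. Of these, AREG also rose in PARP1 KO cells (0.37, adjusted P = 4.4e-04, edgeR), while IRF1 (0.32), EXO1 (0.21) and RELB (-0.02) did not pass there. PGR was at -0.11 in PARP1 KO cells, and its difference of -0.52 (SE 0.09, adjusted P = 0.0025, edgeR) was below the fold criterion.

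**Figure D5:**
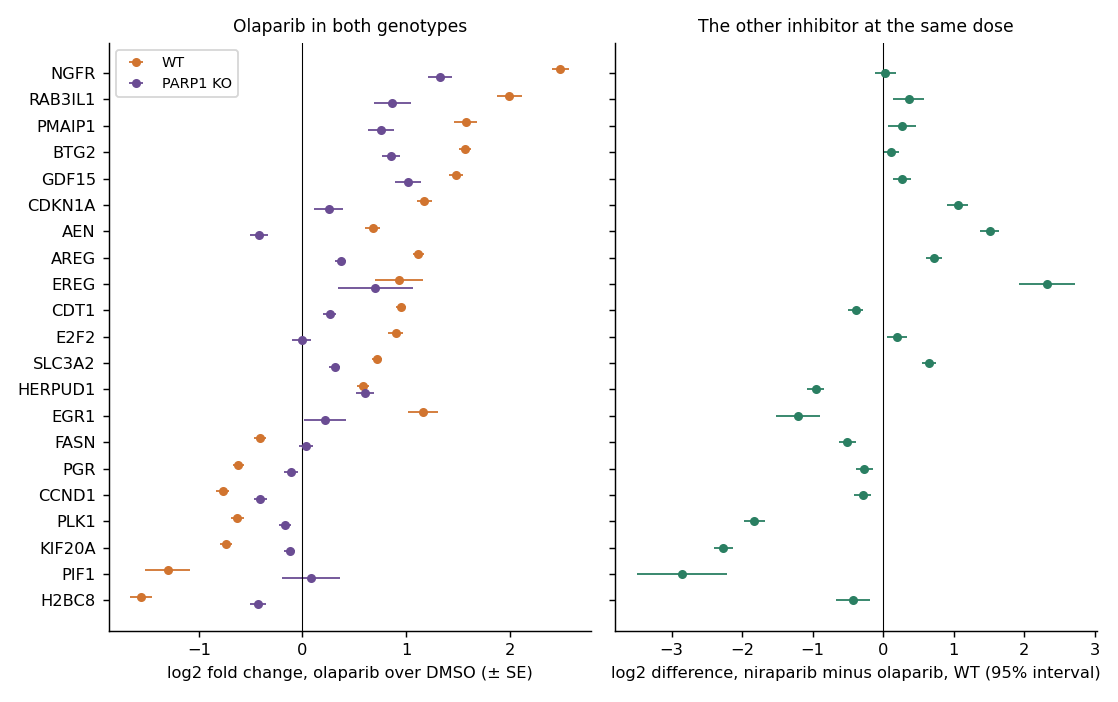
Left, log2 fold change of olaparib over DMSO with its SE for 21 genes in WT (orange) and PARP1 KO cells (purple). Right, log2 difference of niraparib minus olaparib in WT with its 95% interval. NGFR sits at 2.49 in WT and 1.33 in PARP1 KO cells with an interval on the right that crosses zero, while KIF20A and PIF1 lie far below zero on the right.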

How the data were processed

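PolyA RNA of T47D cells was sequenced in 18 libraries, of which 6 (3 with olaparib, 3 with DMSO, labelled WT) are compared here. Per library, the authors deposited whole-number read counts for each gene: reads were trimmed with Trimmomatic and mapped to GRCh38 with STAR, duplicates were marked with Picard, and exon reads on the reverse strand were counted at primary alignments with featureCounts 2.0.0 on the annotation of Ensembl release 96, per the file headers and the study's methods. Labels and methods differ on RNA input, medium and extraction kit. The files hold 58884 genes, of which 58472 were matched to a symbol. Total counts of the compared libraries were 30293678 to 52251288, and precision is limited by 3 libraries a group.

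edgeR 4.0.16 (R 4.3.3) was run on the counts with TMM factors and robust quasi-likelihood F tests, for genes whose counts summed to more than 10 over the libraries fitted, and P values were adjusted by Benjamini-Hochberg over all of them. The main comparison and that with niraparib came from 1 fit of the 9 WT libraries, which share an estimate of spread (biological coefficient of variation 7.04%), the PARP1 KO values from a fit of 9 libraries, and the interaction from all 18. Calls required a difference past 1.5-fold with the adjusted P value under 0.05. The SE was taken as the size of the log2 fold change over the root of F. The study's methods state DESeq2 with another fold threshold, and both are among the alternatives: DESeq2 1.42.0, RLE size factors, filterByExpr, no filter, the replicate number as a block, 6 or 18 libraries in a fit, an absolute log2 fold change above 1.5, the adjusted P value alone, and each library left out. Scripts were tested on simulated counts.

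Gene lists (27, and the clustered histone genes) are described by counts of calls and medians, with no set test; summed levels and shares are given without a test. Named were the 15 largest rises and falls among called genes with a symbol, at least 1 CPM and no overlap between treatments; up to 5 called members of each list in each direction; the 5 most counted calls in each direction; PARP1, PARP2, TNKS, TNKS2, FECH, CYP27A1, MYLIP, FASN and SCD; and up to 5 genes in each direction that differed most from niraparib and from PARP1 KO. Some items that the rules chose are not reported here. Further list members are named with their log2 fold change alone. The lists, rules and comparisons were chosen with earlier results of these data known, and the histone list and the ATF4 motif after the values were seen. Promoters (250 bases before to 50 after the start) came from RefSeq on GRCh38.p14 and matched 13301 of 22314 tested genes with a name.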

Additional observations from a re-analysis of the deposited data

Results flagged for a closer look

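The response to olaparib of 37 named genes differed between WT and PARP1 KO cells by the interaction test (edgeR, adjusted P value below 0.05 and more than 1.5-fold). Most of these genes were named for their change in WT cells, so a response that is larger in WT is partly set by that choice. The values below are log2 responses in WT minus those in PARP1 KO cells.

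Among genes with a more positive response in WT were the cell cycle and checkpoint genes CDT1 (0.69), ORC1 (0.67), E2F2 (0.90), MCM10 (0.74), EXO1 (0.72), CDKN1A (0.92), BTG2 (0.71), AEN (1.09) and PMAIP1 (0.81). Signalling and inflammatory genes were AREG (0.75), RELB (0.87), IRF1 (0.92), ISG20 (0.70), NGFR (1.15), RASGRP1 (1.41), ADORA1 (1.31), ARAP3 (1.29) and INHBE (1.21). The others were RAB3IL1 (1.13), CSPG4 (1.43), NR1D1 (0.72), DEPP1 (1.15), H19 (1.13), RIMS4 (1.28) and MYLIP (0.61).

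A more negative response in WT was found for the mitotic kinesin and histone genes KIF20A (-0.61), H2BC8 (-1.13), H2BC7 (-1.28), H2BC21 (-0.92) and H3C10 (-0.66). It was also found for SLC4A8 (-0.81), ADAM8 (-1.46), FERMT3 (-1.52), CEACAM22P (-2.07), CAPN10-DT (-1.59), PJVK (-1.93) and ZNF321P (-1.31). ADORA1 was at 0.607, 1.99 and 1.79 CPM with DMSO and 3.87, 3.24 and 3.998 CPM with olaparib in WT cells. FERMT3 was at 2.36, 2.11 and 2.06 CPM with DMSO and 1.10, 0.879 and 1.06 CPM with olaparib. Some of these genes lost their call in WT cells when a WT library was left out: RIMS4 without DMSO replicate 1, DMSO replicate 3 or any olaparib replicate, SLC4A8 without DMSO replicate 1, ADAM8 without DMSO replicate 1, olaparib replicate 1 or olaparib replicate 3, and CEACAM22P without DMSO replicate 1 or olaparib replicate 2.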

How the results depend on the processing

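Of 103 called genes that the naming rules chose, 83 were called in each of 13 alternatives of the main comparison (those that keep the call rule), and in none did a value change sign. The count of 907 calls was 906 with RLE size factors, 886 with filterByExpr, 847 with DESeq2, 925 from 6 libraries, 908 from 18 libraries and 1017 with no filter, and 652 to 889 with single libraries left out. It was 153 with an absolute log2 fold change above 1.5 and 4270 with the adjusted P value alone. For niraparib against olaparib (2009 calls) these 2 rules gave 367 and 7232, and single libraries left out 1695 to 2002. For PARP1 KO cells (177) they gave 21 and 1827, and 100 to 195. For the interaction (162) they gave 30 and 559, and 86 to 273, besides 346 with no filter and 233 with DESeq2. The causes of the shifts were not tested.

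With the replicate number as a block, the counts were 812, 1859, 148 and 137 in the same order. Same-numbered WT libraries of different treatments correlated between -0.52 and 0.35 in their deviations from the group means. For olaparib and DMSO the values were 0.10, 0.14 and -0.06 for replicates 1, 2 and 3. With 3 libraries a group, these values cannot settle whether the numbers pair the samples. DMSO replicate 1 deviated together with niraparib replicate 2 (0.62). Depth limits genes of few reads.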

Other observations

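Motifs without a result above are given as values. The xenobiotic response element core GCGTG was in 49.3% of promoters of called higher genes, 40.4% of called lower genes and 48.3% of all tested. In the same order the antioxidant element TGACNNNGC was in 17.1%, 15.96% and 15.01%, the CCAAT box in 32.8%, 45.1% and 36.3%, the E-box CANCTG in 45.8%, 43.2% and 45.2%, and the interferon-stimulated response element in 2.32%, 3.29% and 2.83%. A palindromic estrogen response element was in 0 of 345, 0 of 213 and 3 of 13301 promoters.

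Among the most counted higher genes not described above were TP53I11 (285, 269 and 282 CPM in the DMSO libraries, 477, 472 and 489 CPM in the olaparib libraries) and DERA, an aldolase of deoxyribose phosphate (106, 127 and 126 CPM in the DMSO libraries, 188, 206 and 189 CPM in the olaparib libraries). PARP2 had 49.7, 49.4 and 51.9 CPM with DMSO and 57.1, 57.6 and 57.3 CPM with olaparib (log2 fold change 0.19, SE 0.05, adjusted P = 0.01, edgeR) and SCD, the stearoyl-CoA desaturase, 1446 ± 18.8 CPM with DMSO and 1284 ± 20.8 CPM with olaparib (log2 fold change -0.17, SE 0.05, adjusted P = 0.026, edgeR), neither of them past 1.5-fold. ZNF781 and ZNF321P, annotated as transcribed pseudogenes of the zinc finger family, fell by 1.39 and 1.27 on the log2 scale, and 40.2% of the exon length of ZNF321P is shared with another gene of its strand.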
